A study of Mus musculus with 4 samples.

Results

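Wnt ligands, their Frizzled receptors and the secreted proteins that tune them were examined in ID8G cells and in GO2 cells. Members were taken by name alone. They are the probes, other than control spots, whose RefSeq accession belongs to a gene named Wnt, Fzd, Sfrp, Dkk or Rspo with a number, or Lgr4, Lgr5 or Lgr6. This gave 55 probes for 45 of the 22911 gene symbols on the array. One of the 45, Fzd10os, is a noncoding transcript named for lying opposite Fzd10 and codes for no receptor. ID8 is a mouse ovarian cancer line that arose by spontaneous transformation of ovarian surface epithelial cells. ID8G cells are ID8 cells transduced with a GFP retrovirus and sorted for GFP, and serve as the parental line. GO2 cells are CD45-negative, GFP-positive cells sorted from omental tumors after 2 rounds of intraperitoneal growth of ID8G cells in syngeneic C57BL/6 J mice. GO2 is 1 selected line, both lines carry the GFP vector, and both were kept in the same culture medium with insulin, transferrin and selenite. RNA of each line was hybridized to 2 Agilent arrays in 1 color. The labels do not say whether the arrays of a line came from separate cultures, so the spread between them may be technical.

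Wnt proteins are secreted lipid-modified ligands. They bind Frizzled receptors together with Lrp5 or Lrp6, which stabilizes beta-catenin and lets it act with TCF/LEF factors on target genes, or with receptors such as Ror1, Ror2 and Ryk in branches that act on cell polarity and calcium. Sfrp proteins bind Wnt ligands outside the cell, Dkk1, Dkk2 and Dkk4 bind Lrp5 and Lrp6, and Dkk3 is a divergent relative. R-spondins, through Lgr4, Lgr5 and Lgr6, hold back the ligases Rnf43 and Znrf3 that remove Frizzled from the cell surface. In the ovary, Wnt4 is known for its part in female gonad development, and Lgr5 is known as a marker of a population of surface epithelial cells.

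Ligands and antagonists moved in both directions between the lines. Of the 45 genes, 10 were higher in GO2 cells, namely Wnt4, Wnt5a, Wnt5b, Wnt10b, Fzd1, Fzd6, Fzd8, Sfrp2, Sfrp4 and Dkk3. A further 5 were lower in GO2 cells, namely Wnt6, Wnt7b, Wnt10a, Dkk2 and Lgr5. Of the rest, 12 genes were tested and not called, and 18 were not tested because no probe was well above background on both arrays of either line. A gene was called where at least 1 of its probes differed by at least 2-fold with a Benjamini-Hochberg adjusted p below 0.05 (limma, over all 28368 probes tested). Levels are log2 intensities scaled to the 75th percentile of each array, so that a probe at this percentile has a level of 0.

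By probe, 35 of the 55 were tested. Of these, 14 were called higher and 6 lower, where 4.5% and 3.34% of all tested probes were called in these directions and 7.84% in either. By gene symbol, 6.44% of the tested symbols had a probe called higher and 4.33% a probe called lower. The filter on dim signal passes a probe through the line in which it is bright, so these shares are a description of the members that passed. Among the 26 member probes well above background on all 4 arrays, 8 were called higher and 5 lower, beside 2.55% and 2.32% (4.87% in either direction) of the 26020 such probes on the array. Their median difference was 0.27 and their differences ran from -2.85 to 3.51 on the log2 scale, where the median of all such probes was -0.03. Both GO2 arrays lay above both ID8G arrays for 23 of the 35 tested member probes and below them for 10, which 33.9% and 39.6% of all tested probes also did. The smallest p that an exact two-sided permutation of 2 and 2 arrays allows for 1 probe is 0.333. Every adjusted p given here therefore leans on the spread shared by limma over all probes.

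**Figure D1:**
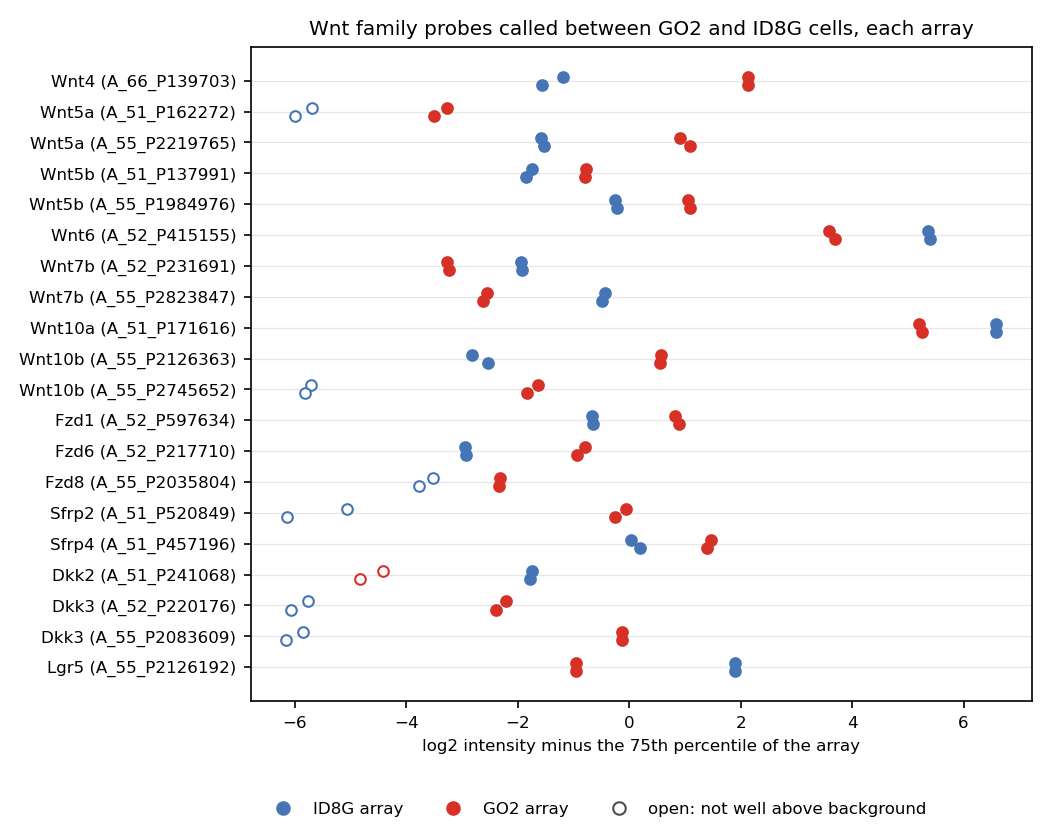
Log2 level (x axis, scaled to the 75th percentile of each array) of the 20 member probes called between the lines, with 1 point per array (ID8G blue, GO2 red) and open points where the spot was not well above background. The probes shown were picked by their calls on these arrays, so the gap between the lines in each of them is no further result. Both GO2 arrays lay above both ID8G arrays in 33.9% of all tested probes and below them in 39.6%. The Wnt6 and Wnt10a probes were lower in GO2 cells, while those of Wnt4, Wnt5a and Wnt10b were higher.

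The promoters of the members that moved are shown where RefSeq start sites could be matched. Of the 45 genes, 29 had an entry for GRCm38.p6, 27 of them with a single start. The 250 bases before the start are printed 5′ to 3′ on the strand of the gene for Sfrp2 and Wnt10b, which have a probe with a larger fitted difference than any other called-higher member with a single start, and for Dkk2 and Wnt6, the members with a single start that fell. For Sfrp2 and that probe of Wnt10b, ID8G cells were not well above background. They lie at chr3:83766071-83766320 (plus strand), chr15:98778151-98778400 (minus strand), chr3:132085042-132085291 (plus strand) and chr1:74771642-74771891 (plus strand). Capitals mark matches to a motif, where overlapping matches count separately. The GC box was searched as GGGCGG on both strands. The TATA motif was searched on the strand of the gene only, as TATAAA. The motif of TCF/LEF factors was searched as CTTTGAT on both strands, and it had no match in the windows printed.
Sfrp2: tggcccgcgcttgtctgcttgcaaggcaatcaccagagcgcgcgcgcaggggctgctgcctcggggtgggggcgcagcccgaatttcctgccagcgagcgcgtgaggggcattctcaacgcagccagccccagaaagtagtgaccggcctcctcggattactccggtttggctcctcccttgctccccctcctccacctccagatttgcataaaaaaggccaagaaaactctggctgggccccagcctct
Wnt10b: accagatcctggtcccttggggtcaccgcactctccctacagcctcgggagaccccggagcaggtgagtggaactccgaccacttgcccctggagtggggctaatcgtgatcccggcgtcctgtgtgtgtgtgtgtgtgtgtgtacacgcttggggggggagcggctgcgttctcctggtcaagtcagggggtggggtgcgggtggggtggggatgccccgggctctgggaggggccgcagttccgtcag
Dkk2: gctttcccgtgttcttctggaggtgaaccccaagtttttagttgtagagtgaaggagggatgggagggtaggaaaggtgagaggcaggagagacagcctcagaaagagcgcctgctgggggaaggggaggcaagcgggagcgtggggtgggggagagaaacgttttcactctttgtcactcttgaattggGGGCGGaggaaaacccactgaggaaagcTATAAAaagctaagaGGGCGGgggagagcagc
Wnt6: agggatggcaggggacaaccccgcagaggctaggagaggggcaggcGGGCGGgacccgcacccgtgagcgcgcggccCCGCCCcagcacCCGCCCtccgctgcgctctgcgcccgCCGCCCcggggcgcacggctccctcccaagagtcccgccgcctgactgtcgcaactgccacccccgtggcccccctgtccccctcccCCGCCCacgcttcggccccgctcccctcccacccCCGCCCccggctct
The windows of Sfrp2 and Wnt10b held none of these motifs. Dkk2 had 2 GC boxes and 1 TATA motif, and Wnt6 had 6 GC boxes. CpG pairs numbered 16 in Sfrp2, 14 in Wnt10b, 7 in Dkk2 and 28 in Wnt6. Over the 32 windows of members, 22 (68.8%) held a GC box, as did 32.7% of all 32851 windows of this length. The share was 42.9% in the 7 windows of members called higher and 100% in the 2 of members called lower. It was 72.7% in the 11 windows of members not called and 75% in the 12 of members not tested. A TCF/LEF motif was in 2 of the member windows (6.25%), 1 each of Wnt5b and Wnt11, and in 3.21% of all windows. The median number of CpG pairs was 22 in the member windows and 6 in all windows.

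Among member probes measured on all 4 arrays, that of Wnt4 rose most. Its probe A_66_P139703 had levels of -1.18 and -1.57 in ID8G cells against 2.14 and 2.13 in GO2 cells. The lines did not overlap, and the log2 difference was 3.51 (SE 0.14, limma adjusted p = 0.000541), or 11.4-fold. Wnt10b, a ligand known from mammary and hair follicle development, has 2 probes. The brighter, A_55_P2126363, read -2.82 and -2.53 in ID8G cells and 0.58 and 0.55 in GO2 cells, a difference of 3.24 (SE 0.11, adjusted p = 0.000411). The other, A_55_P2745652, was not well above background on either ID8G array and was at least 3.83-fold higher in GO2 cells, with measured levels of -5.76 and -1.74.

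Wnt5a and Wnt5b, ligands best known for signaling through the polarity and calcium branches, also rose. For Wnt5a the probe A_55_P2219765 read -1.59 and -1.52 in ID8G cells and 0.92 and 1.09 in GO2 cells, a difference of 2.56 (SE 0.08, adjusted p = 0.000325). Its second probe, A_51_P162272, was not well above background in ID8G cells. Its bound was at least 1.23-fold, and it was no longer called with normexp background correction (0.90) or with the floor (0.30). The Wnt5b probe A_55_P1984976 read -0.25 and -0.22 in ID8G cells and 1.06 and 1.09 in GO2 cells, a difference of 1.31 (SE 0.05, adjusted p = 0.000507). The second Wnt5b probe, A_51_P137991, differed by 1.02 and stood at the threshold, falling short of 2-fold with median centering (0.99), spike-in scaling (0.81), normexp (0.90) and without ID8G replicate 2 (0.97).

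Wnt10a, Wnt6 and Wnt7b fell. Wnt10a, a ligand known from tooth and skin development, read 6.59 and 6.58 in ID8G cells and 5.20 and 5.25 in GO2 cells, a difference of -1.37 (SE 0.05, adjusted p = 0.00049). It was 2.58-fold lower in GO2 cells, and well above background on all 4 arrays. Wnt6, the gene next to Wnt10a, read 5.36 and 5.40 in ID8G cells and 3.58 and 3.70 in GO2 cells, a difference of -1.74 (SE 0.07, adjusted p = 0.000485). Both probes of Wnt7b, a ligand known from lung and kidney epithelium, were lower. A_55_P2823847 read -0.44 and -0.48 in ID8G cells and -2.55 and -2.63 in GO2 cells, a difference of -2.13 (SE 0.06, adjusted p = 0.000282). A_52_P231691 differed by -1.32, and by -0.68 with normexp, where it was not called.

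Of the other tested ligands, Wnt2 was 0.87 lower on the log2 scale in GO2 cells (adjusted p = 0.00987) and Wnt9a was 0.74 higher (adjusted p = 0.0132), both under 2-fold. With spike-in scaling Wnt2 differed by -1.07 and was called. The Wnt11 probes did not move together, with -0.62 for A_51_P503131 (adjusted p = 0.00289) and 0.08 for A_55_P2507365 (adjusted p = 0.80). Wnt1 differed by -0.11 (adjusted p = 0.196). Wnt2b, Wnt3, Wnt3a, Wnt7a, Wnt8a, Wnt8b, Wnt9b and Wnt16 were not tested. Of these, Wnt3a was well above background on 1 ID8G array, at -2.77, and not on the other, at -5.97.

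Of the 11 genes named Fzd, 8 were tested, of which 3 rose, 0 fell and 5 were not called (limma), where 6.44% of all tested symbols had a probe called higher and 4.33% a probe called lower. At an unadjusted p below 0.05 the count that fell is also 0, with a lowest log2 difference of -0.07, for Fzd7. With the methods' t-test 0 were called in either direction, where over all tested probes 0 were called higher and 3 lower. This is an unpaired t-test with Welch's correction, here with Benjamini-Hochberg adjustment. The paper names it for comparing groups in general and names no test for its arrays. Fzd6 read -2.95 and -2.93 in ID8G cells and -0.80 and -0.93 in GO2 cells, a difference of 2.07 (SE 0.07, limma adjusted p = 0.000351), or 4.21-fold. Fzd6 is known for its role in hair patterning and planar polarity. Fzd1 read -0.66 and -0.64 in ID8G cells and 0.83 and 0.90 in GO2 cells, a difference of 1.52 (SE 0.06, adjusted p = 0.000442). The third, Fzd8, was not well above background in ID8G cells, at -3.51 and -3.77, and read -2.31 and -2.34 in GO2 cells. It was at least 2.48-fold higher (adjusted p = 0.0027) and was not called with normexp, where it differed by 0.75.

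Fzd2 was higher by 0.80 (adjusted p = 0.00178), under 2-fold, with 1.71 and 1.76 in ID8G cells and 2.55 and 2.51 in GO2 cells. Fzd4 read 2.37 and 2.28 in ID8G cells and 2.47 and 2.41 in GO2 cells and differed by 0.11 (SE 0.06, adjusted p = 0.222) and by -0.10 with spike-in scaling. Fzd5 differed by 0.20 and 0.35 by its 2 probes (adjusted p = 0.0685 and 0.0714) and Fzd7 by -0.07 (adjusted p = 0.406). Fzd9 was not well above background in ID8G cells. It differed by 0.94 (limma adjusted p = 0.00532), with a bound of at least 1.18-fold. With no minimum difference it was called, and without GO2 replicate 2 it differed by 1.06. Fzd3, Fzd10 and Fzd10os were not tested.

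**Figure D2:**
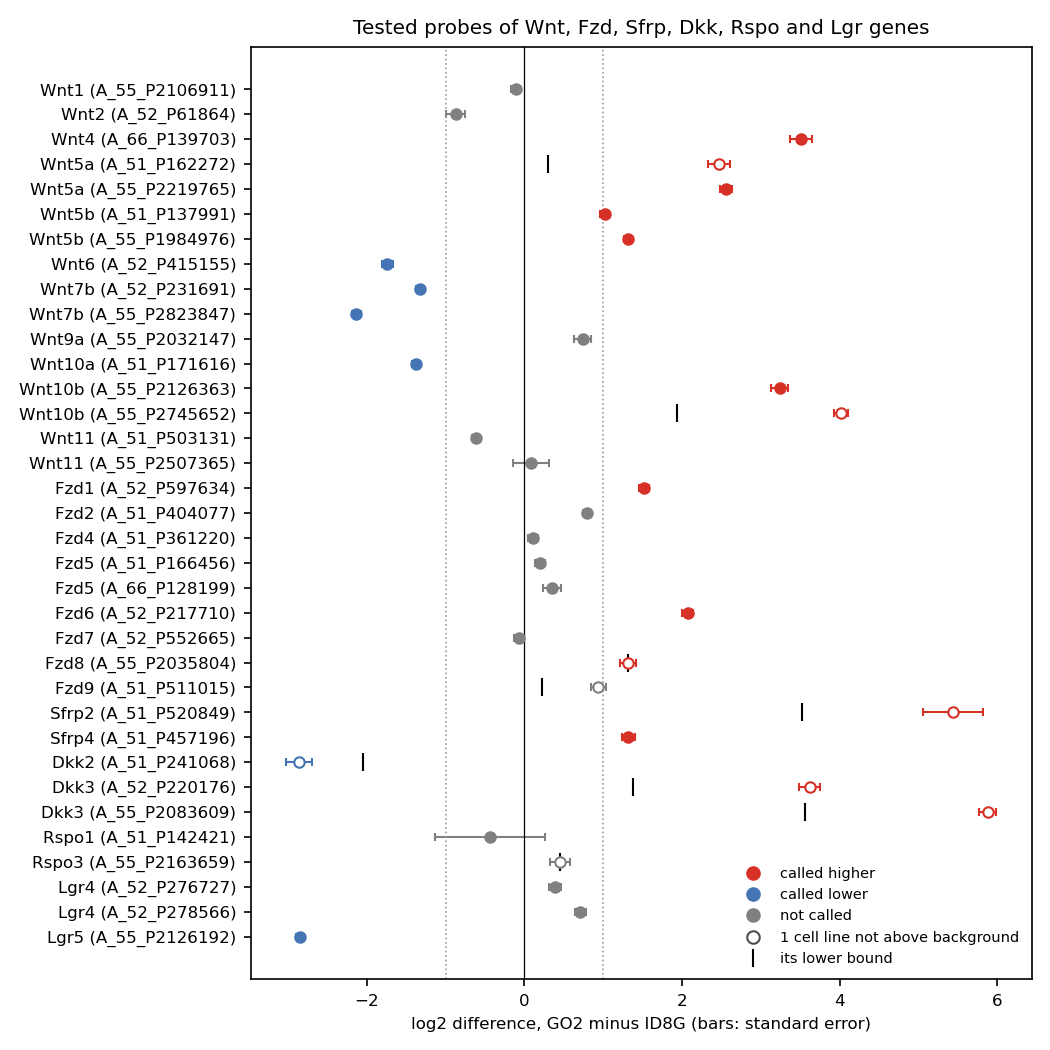
Difference of the log2 level, GO2 minus ID8G, for the 35 tested member probes with standard errors from limma (red called higher, blue called lower, gray not called, dotted lines at 2-fold). Open circles mark probes with 1 line not well above background, and the black tick gives their lower bound. Among the Frizzled genes 3 were called higher, while called Wnt ligands lay on both sides of 0 and Lgr5 lay at -2.85.

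In the Dkk and Sfrp families, Dkk3, Sfrp2 and Sfrp4 rose and Dkk2 fell. Dkk3 was not well above background on either ID8G array by both of its probes. A_55_P2083609 read -5.86 and -6.15 in ID8G cells and -0.12 on each GO2 array, which is at least 11.8-fold higher. Its limma adjusted p of 0.000193 belongs to the fitted difference and not to this bound. A_52_P220176 read -5.77 and -6.06 in ID8G cells and -2.21 and -2.38 in GO2 cells, at least 2.60-fold higher. Sfrp2 read -5.06 and -6.14 in ID8G cells, not well above background, and -0.06 and -0.26 in GO2 cells. It was at least 11.4-fold higher in GO2 cells (adjusted p = 0.00194). In the same family Sfrp4 was measured on all 4 arrays, at 0.04 and 0.19 in ID8G cells and 1.47 and 1.39 in GO2 cells, a difference of 1.32 (SE 0.08, adjusted p = 0.00124).

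Dkk2 went the other way. It read -1.74 and -1.78 in ID8G cells and was not well above background on the GO2 arrays, at -4.41 and -4.83. It was therefore at least 4.13-fold lower in GO2 cells (adjusted p = 0.00101). Of these families, the genes with signal well above background were thus Dkk3, Sfrp2 and Sfrp4 in GO2 cells, and Dkk2 and Sfrp4 in ID8G cells. Dkk1, Dkk4, Sfrp1 and Sfrp5 were well above background on no array.

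Lgr5, a receptor for R-spondins, fell more than any other member measured on all 4 arrays. It read 1.89 and 1.90 in ID8G cells and -0.96 and -0.95 in GO2 cells, a difference of -2.85 (SE 0.05, limma adjusted p = 0.000189), or 7.21-fold. Its relative Lgr4 was higher by 0.39 and 0.71 on the log2 scale by its 2 probes (adjusted p = 0.0271 and 0.00528), both under 2-fold. Lgr6 was well above background on no array. Of the R-spondins, Rspo1 read -1.62 and -3.61 on the ID8G arrays, which lay on either side of the GO2 values of -2.97 and -3.13. Its difference was -0.44 (SE 0.70, adjusted p = 0.651), and it was 0.55 without ID8G replicate 1 and -1.43, then called lower, without ID8G replicate 2. Rspo3 differed by 0.45 (adjusted p = 0.0632), with ID8G cells not well above background. Rspo2 and Rspo4 were not tested.

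Most other pathway genes were not called. A list of 93 other pathway genes on the array had 73 tested genes, of which 9 were higher and 5 lower in GO2 cells, where 6.44% and 4.33% of all tested symbols had such a probe. The median difference of its 114 probes measured on all 4 arrays was 0.06 on the log2 scale. Porcn, which attaches the lipid to Wnt ligands, differed by -0.06 (adjusted p = 0.587), and Wls, which carries ligands to the surface, by 0.09 and 0.04 by its 2 probes (adjusted p = 0.247 and 0.717). The co-receptor Lrp5 differed by 0.01 (adjusted p = 0.884), and the 2 probes of Lrp6 by -0.62 (adjusted p = 0.0111) and -0.58 (adjusted p = 0.00579), both under 2-fold. Ctnnb1, which encodes beta-catenin, differed by 0.14 and 0.11 (adjusted p = 0.103 and 0.444). The signs for Wls, Lrp5 and Ctnnb1 turned with spike-in scaling.

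Ror1, a receptor for Wnt5a, read -0.84 and -0.67 in ID8G cells and 1.67 and 1.60 in GO2 cells, a difference of 2.39 (SE 0.08, limma adjusted p = 0.000413), while its relative Ror2 was well above background on no array. Trabd2b, a membrane protease known to inactivate Wnt ligands, was not well above background in ID8G cells and was at least 2.35-fold higher in GO2 cells. Tcf7l1, a TCF factor that mostly represses, rose by 1.98, Dact3, an inhibitor acting on Dvl, by 1.83, and Vangl2, a core polarity protein well above background on 1 of 2 ID8G arrays, by 1.58 (0.97 with normexp, where it was not called). Plcb4, a phospholipase, rose by 1.74 and by at least 3.41-fold in its other probe. Rnf43 rose by 1.11 and the corepressor Tle3 by 1.03, and neither was called with spike-in scaling (0.90 and 0.82). The other probe of Tle3 differed by 0.60. Lef1, also a nuclear factor, is described with the targets. The pathway and target lists overlap, and Lef1 and Rnf43 count among the higher genes of both.

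Camk2b, a calcium-dependent kinase, was lower in GO2 cells, with a log2 difference of -3.56 (SE 0.12, limma adjusted p = 0.000376). The corepressors Tle2 and Tle4 were lower too, at -1.24 in 1 of 2 probes and at -1.19. Igfbp4, a binding protein that also inhibits Wnt signaling, differed by -1.19 in each of its 2 probes, and Celsr1, a polarity cadherin, by -1.04. The second probe of Tle2 differed by -0.46, and Celsr1 fell short of 2-fold without ID8G replicate 2 (-0.94) and without GO2 replicate 1 (-0.97).

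**Figure D3:**
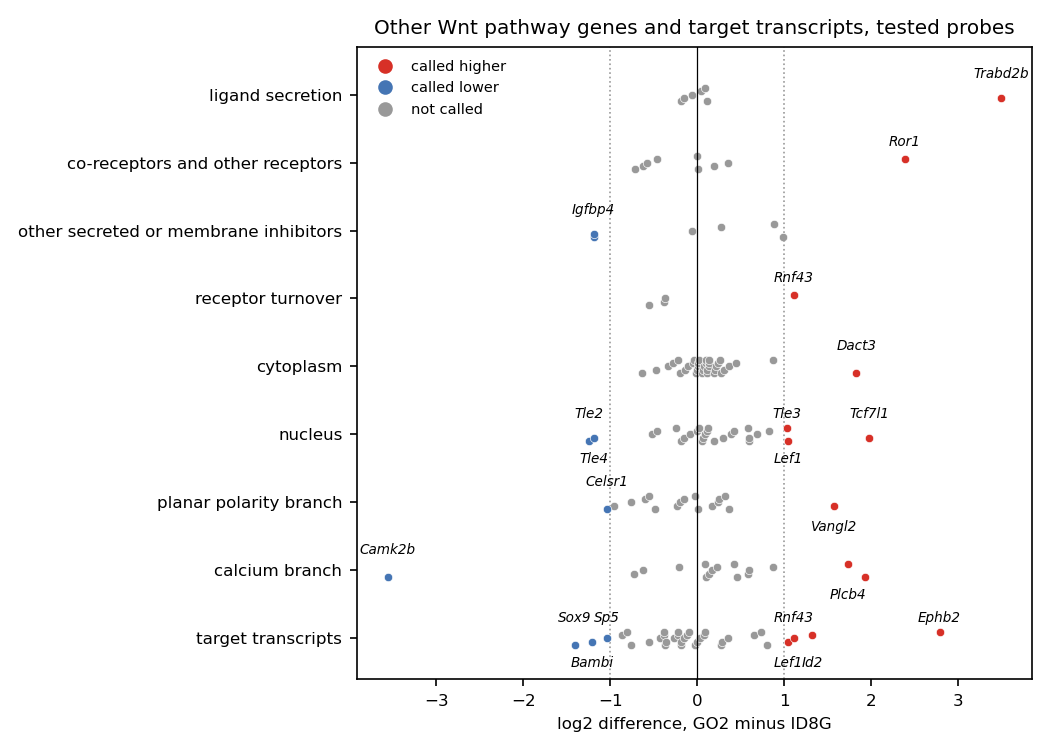
Difference of the log2 level, GO2 minus ID8G, of each tested probe of other Wnt pathway genes by role and of target transcripts (red called higher, blue called lower, gray not called, dotted lines at 2-fold). Most probes lie within 2-fold, with Ror1 at 2.39 and Camk2b at -3.56 among those outside it.

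Transcripts known to follow beta-catenin signaling were called in both directions. Of 30 such genes 23 were tested, 4 were higher (Lef1, Rnf43, Ephb2 and Id2) and 3 lower (Sp5, Sox9 and Bambi). Of all tested symbols, 6.44% had a probe called higher and 4.33% a probe called lower. The median of the 33 target probes measured on all 4 arrays was -0.19, where that of all such probes was -0.03. Axin2, the target used most widely, was not tested, since its brighter probe A_52_P54176 was well above background on 1 ID8G array only, with -3.71 and -3.50 in ID8G cells and -5.75 and -4.76 in GO2 cells. Sp5 read 0.77 and 0.79 in ID8G cells and -0.29 and -0.23 in GO2 cells, a difference of -1.04 (SE 0.05, limma adjusted p = 0.000892). Sox9 differed by -1.41 in 1 of 2 probes and by -0.38, not called, in the other, and Bambi by -1.21. Lef1 was not well above background in ID8G cells and was at least 1.73-fold higher (adjusted p = 0.0181), a call that was lost with normexp (0.56), spike-in scaling (0.85), the floor (0.79) or no filter on dim probes, and without any 1 of ID8G replicate 1, ID8G replicate 2 and GO2 replicate 2. Id2 was higher by 1.32. Ephb2 was at least 5.87-fold higher by A_65_P13591, while its other probe differed by -0.02.

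Among targets that were not called, Ccnd1 was higher by 0.29 (limma adjusted p = 0.0202), Myc differed by -0.27 (adjusted p = 0.0234) and -0.22 (adjusted p = 0.348), Notum by -0.19 and -0.15, Tcf7 by -0.19, and Znrf3 by -0.37, -0.38 and -0.55. Nkd1 was well above background on no array. Without ID8G replicate 1 the count of higher targets was 2 in place of 4, since Lef1 (1.07) and Rnf43 (0.98) were not called. It was also 2 with normexp and with spike-in scaling. With normexp Sp5 (-0.94) and Bambi (-0.93) were not called either.

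Some of the members lie next to each other or next to genes that moved. Wnt6 and Wnt10a are neighbors on chromosome 1 and were both lower, while Prkag3, on the other side of Wnt6, differed by -0.44 (limma adjusted p = 0.0478). Wnt10b and Wnt1 are neighbors on chromosome 15, and Wnt10b rose by 3.24 while Wnt1 differed by -0.11. Fzd6, also on chromosome 15, lies between Baalc and Cthrc1, and all 3 rose, Baalc by at least 1.89-fold, Fzd6 by 2.07 and Cthrc1, a secreted protein known to bind Wnt and Frizzled proteins, by 5.53 on the log2 scale. The next genes outward differed by -0.17 (Atp6v1c1) and 0.10 (Slc25a32). Around the 15 called members, 27 other genes are direct neighbors, of which 17 were tested. By the probe with the highest mean signal of each, 3 were called higher (Baalc, Cthrc1 and Tlr2) and 0 lower. By any of their probes, 6.44% of all tested symbols were called higher and 4.33% lower.

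**Figure D4:**
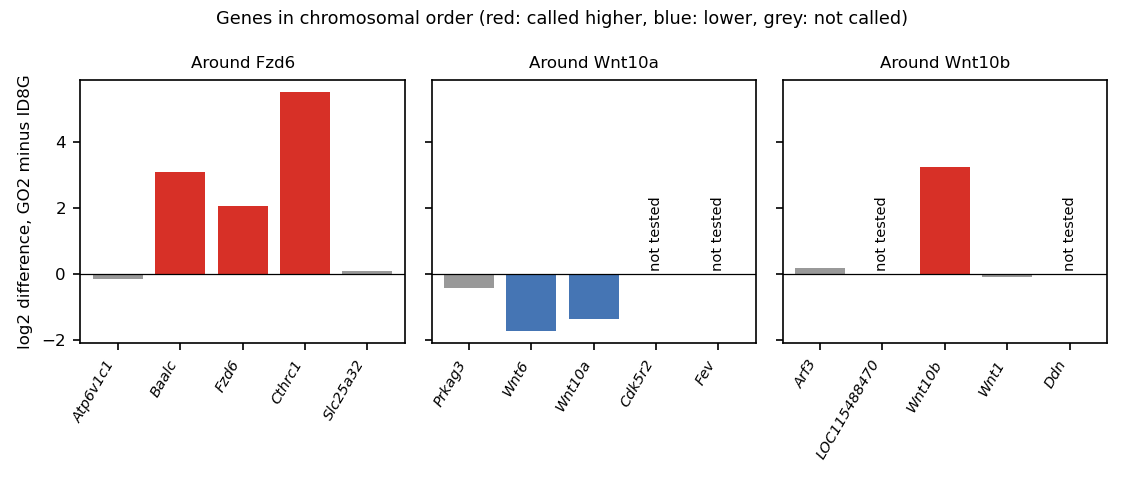
Difference of the log2 level, GO2 minus ID8G, of genes in chromosomal order around Fzd6, Wnt10a and Wnt10b, by the probe with the highest mean signal of each gene (Baalc was not well above background in ID8G cells, so its bar is no bound). Baalc, Fzd6 and Cthrc1 rose side by side, Wnt6 and Wnt10a fell side by side, and Wnt1 lay at -0.11 beside Wnt10b.

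Of 11 markers of ovarian surface epithelium and mesothelium, 9 were well above background on all arrays, while Epcam and Krt7 were well above background on no array. Wt1 read 5.98 and 6.22 in ID8G cells and 5.99 and 6.01 in GO2 cells. Krt19 differed by -1.65 (limma adjusted p = 0.00034) and Upk3b by 1.08, and both were called. Krt18 (-0.81), Msln (-0.82) and Krt8 (-0.55) were lower and Cdh2 (0.55) higher, each under 2-fold with a limma adjusted p below 0.05. Cdh1 (-0.34) and Lrrn4 (-0.04) did not pass that p. The summed linear level of this list, with the 75th percentile of the array as 1, was 664 to 670 in ID8G cells and 384 to 389 in GO2 cells. Bright keratin probes weigh heavily in this sum, such as Krt18 (mean levels of 8.09 in ID8G and 7.28 in GO2 cells) and Krt19 (7.39 and 5.74). Of 12 fibroblast markers, 8 were tested, of which 5 were called higher in GO2 cells (Col1a1, Col1a2, Col3a1, Pdgfra and Pdgfrb) and 0 lower. Beside these marker lists, 6.44% of all tested symbols had a probe called higher and 4.33% a probe called lower. Col1a2 differed by 7.49, Col1a1 by 4.69 and 4.73, Col3a1 by 4.20 and Pdgfra by 3.70, and Pdgfrb was at least 2.42-fold higher. Dcn differed by -0.63, Vim by 0.75 and S100a4 by -0.21, none of them called, and Fap, Lum, Postn and Thy1 were well above background on no array. The summed level of the fibroblast list was 329 to 338 in ID8G cells and 446 to 454 in GO2 cells. Bright probes weigh heavily in it too, such as S100a4 (mean levels of 7.46 in ID8G and 7.26 in GO2 cells) and Vim (6.45 and 7.20). Of 10 macrophage markers, Ptprc, Adgre1, Lyz2, Mrc1, Fcgr1 and C1qa were well above background on no array. The other 4 (Itgam, Csf1r, Cd14 and Cd68) each had a probe well above background on all 4 arrays and were not called, with Cd14 lower by under 2-fold (log2 differences of -0.67 and -0.69, limma adjusted p = 0.00298 and 0.0021). The sum of the list was 22.4 to 25.1 in ID8G cells and 21.7 to 21.8 in GO2 cells. Most of it came from Itgam, with mean levels of 4.29 in ID8G and 4.15 in GO2 cells by its brighter probe. GO2 cells had been sorted as CD45-negative, GFP-positive cells, a gate meant to leave out leukocytes and cells without GFP, and then cultured. The part of other cell types in the differences of Dkk3, Sfrp2, Wnt5a and the other members was not tested, and in RNA of whole cultures fewer cells with a transcript and less RNA per cell cannot be told apart.

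The 4 arrays shared 1 slide and 1 scan, and saturated spots numbered 0. Between 27502 and 28841 probes were well above background per array, and the 75th percentile of the intensity lay between 627 and 675. The 7 spike-in transcripts measured on all arrays were 0.15 to 0.278 higher in GO2 cells after scaling, and the median over all tested probes, -0.02, becomes -0.23 when arrays are scaled to them. The number of arrays limits the precision.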

How the data were processed

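The authors deposited 1 Feature Extraction file per array (version 11.5.1.1, Cy3, SurePrint G3 Mouse GE 8 x 60K, designed on mm9), with a linear, background-corrected intensity per spot, without normalization between arrays, and marks for outliers, saturation and signal well above background. The authors also deposited log2 values from GeneSpring GX, used for 1 alternative only. Over the 28368 probes tested they lie within 0.01 of the log2 level centered on the median of each probe, and their column medians are 0.104, -0.048, 0.0381 and -0.0486.

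Spots marked as outliers were left out, log2 intensities of the spots of a probe were averaged, and the 75th percentile over the 56605 probes of each array was subtracted. The test was a limma (3.58.1, R 4.3.3) fit of GO2 against ID8G over all 4 arrays without covariates, on probes that 1 line or both had well above background on each of its arrays (for repeated spots, on no fewer marked spots than unmarked). Where no array of a line was well above background, "at least" folds set the mean of the other line against, on each array, the higher of the lowest signal well above background and the probe's own signal. An adjusted p printed beside such a fold is that of the fitted difference, not of the bound. Figures were drawn with matplotlib 3.10.9 in python 3.11.15. The fit was tested on simulated data.

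Names came from the accession of the probe through RefSeq (GRCm38.p6), which matched 32994 probes. No coordinate of the gene table is given, since the arrays are on mm9. The promoter windows carry their own build. Genes next to each other were taken from the order of protein-coding genes.

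Named are all members with a called probe, the tested gene with the highest signal of each family, all other members by symbol, called genes of the pathway and target lists, and Porcn, Wls, Lrp5, Lrp6, Ror2, Ctnnb1, Axin2, Lef1, Nkd1, Notum, Rnf43, Znrf3, Tcf7, Ccnd1 and Myc. Neighbors were named after their values were seen. The members, the lists (pathway, target and marker lists, of which 1 marker list is not reported here) and the alternatives were chosen with earlier results of these data known. Alternatives were normexp with an offset of 50 on median pixels, quantile normalization, median centering, spike-in scaling, other filters, a floor, an intensity trend, the methods' t-test, a replicate block, the deposited log2 values, no minimum difference, outlier spots kept and each array left out. Muc16 and Tiki1 matched no probe and are not analysed here.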

Additional observations from a re-analysis of the deposited data

How the results depend on the processing

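The 14 higher and 6 lower member probes (10 and 5 genes) depend most on the test. With the methods' t-test, which the paper does not name for its arrays, 0 member probes and 0 member genes were called in either direction. The counts after Benjamini-Hochberg adjustment were also 0 for other pathway genes and 0 for targets. At an unadjusted p below 0.05 and 2-fold, 12 member probes were higher and 6 lower by this t-test. Over all 28368 probes tested, the adjusted t-test called 0 higher and 3 lower, so its counts of 0 are not particular to these genes. A filter for signal on all 4 arrays left 8 higher member probes, since fewer were tested. The 9 higher and 5 lower pathway genes were 26 and 15 with no minimum difference, and the 4 higher and 3 lower targets were then 8 and 7. Higher targets were 2 with normexp, with spike-in scaling and with signal on all 4 arrays, and lower targets 1 with normexp. The median of the members measured on all arrays, 0.275, was 0.067 with spike-in scaling. The causes of these changes were not tested, apart from the number of probes tested.

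Without 1 array in turn, 13 to 15 member probes (10 to 11 genes) were higher and 6 to 8 (5 to 7 genes) lower, 7 to 10 pathway genes higher and 4 to 7 lower, 2 to 4 targets higher and 3 to 4 lower, and the median lay between 0.233 and 0.334. The single array left in a line was taken to have the spread of the other line. With a replicate block, 14 and 6 member probes were called, and the block changed no count of members, pathway genes or targets. The replicate numbers were not taken as pairs: deviations of same-numbered arrays correlated at 0.0273 across tested probes. The slide as a block was not run, as there is 1 slide.

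Among the 73 probes compared, every sign that turned belonged to a value not called in the main comparison. With spike-in scaling these were Ctnnb1 (-0.07 and -0.09), Fzd4 (-0.10), 1 probe of Fzd5 (-0.01), Lrp5 (-0.19), Wls (-0.12 and -0.16) and 1 probe of Wnt11 (-0.13). Lrp5 was also -0.01 with quantile normalization, -0.02 with median centering, -0.03 without ID8G replicate 2 and -0.02 without GO2 replicate 1. With normexp Tcf7 was 0.01 and Wls -0.04. Over the fits without 1 array, Lrp5 ran from -0.03 to 0.06, Porcn from -0.15 to 0.03, 1 probe of Wls from -0.06 to 0.15, 1 probe of Wnt11 from -0.19 to 0.36 (-0.08 without GO2 replicate 1), and Rspo1 from -1.43 to 0.55. Signal over background limits the folds of Dkk3, Sfrp2, Fzd8, Dkk2 and 1 probe each of Wnt5a and Wnt10b to bounds.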

Other observations

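Of 7 endothelial markers, 6 (Cdh5, Cldn5, Emcn, Kdr, Tek and Vwf) were well above background on no array, and the summed linear level was 0.189 to 0.234 in ID8G cells and 0.21 to 0.238 in GO2 cells. Of 6 adipocyte markers, Adipoq and Plin1 were well above background on no array, while Pparg and Lep were on all 4 and were not called (-0.42 and -0.04). Fabp4, a fatty acid carrier of adipocytes and some other cells, was called lower in GO2 cells by both of its probes. The bounds were at least 6.28-fold for A_51_P336833 (limma adjusted p = 0.000851) and at least 1.79-fold for A_52_P564544. Of all tested symbols, 4.33% had a probe called lower. The sum of the list was 3.66 to 3.79 in ID8G cells and 2.5 to 2.81 in GO2 cells.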
